A study of Mus musculus with 9 samples.

Results

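The control group of this mouse study comprised 3 of its 9 uterine RNA sequencing libraries, and its levels are described here for the 18094 genes of the deposited tables. Members were chosen by their label alone, as the 3 libraries named control 1, control 2 and control 3, and they were compared with no other group. Control mice were females that swallowed a peanut oil, lecithin and condensed milk mixture at 5 µl per g of body weight on days 1 to 5 after birth, with no tamoxifen in it. From week 10 they received vehicle injections into the peritoneum for 3 weeks, and the uterus was taken at 13 weeks of age. The other groups had swallowed tamoxifen as newborns to model adenomyosis, with or without primidone injections as adults, and are not analysed here. The sample label gives the treatment as vesicle, which is read here as vehicle. The sources used here give no strain, genotype or stage of the estrous cycle at collection, so these mice stand for a handled and injected adult and not for a defined day of the cycle. The design counts 3 mice in the group, so each library is taken as 1 mouse, and every ± below is an SD over these 3.

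The uterus is a muscular tube whose outer smooth muscle, the myometrium, surrounds the endometrium, a connective tissue stroma covered by a luminal epithelium and penetrated by glands. Estrogen makes the epithelium proliferate and secrete antimicrobial and complement proteins into the lumen, and progesterone turns the tissue towards implantation, in part through stromal transcription factors that restrain the epithelium. RNA of the whole organ mixes all of these compartments with vessels and immune cells. In such a mixture, fewer cells of a type and less RNA per cell cannot be told apart.

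Depth was even across the group, with 39169029, 37474063 and 38197855 counts in control 1, 2 and 3. A gene of the median length, 3334 bases, that has 3 counts stands at 0.0230 to 0.0240 FPKM (fragments per kilobase of gene, scaled to the depth of the library), and a count of 0 allows a level up to there; this covers counting error only. Pearson's r of log2(FPKM + 0.1) across the 12069 genes with a mean of at least 1 FPKM was 0.989 for control 1 and 2, 0.990 for control 1 and 3 and 0.981 for control 2 and 3, where genes are not independent replicates. The chi-square per degree of freedom of the counts was 25.2, 19.6 and 43.6 for the same pairs, so no library was a repeat of another. Control 2 and 3 were thus farthest from each other, with 238 genes (1.97%) more than 1 log2 unit apart, against 97 genes (0.804%) in either of the other pairs. Among 8224 named genes with a mean of at least 5 FPKM, control 2 lay over 0.5 log2 units above both other libraries for 59 and below both for 119. Control 3 did so for 41 and 65 genes, and control 1 for 6 and 4. The 3 Y-linked genes looked up, Ddx3y, Uty and Eif2s3y, had at most 3 counts in a library.

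Of the 18094 genes, 11698 (64.7%) reached 1 FPKM in each of the 3 libraries, 368 in only 2 of them and 335 in only 1. At least 10 FPKM in each library was reached by 5427 genes, at least 100 by 547 and at least 1000 by 49. A further 721 genes had no count in any control library. By mean level, 6280 genes lay between 1 and 10 FPKM and held 14.5% of all counts, and 5191 lay between 10 and 100 FPKM and held 45.6%. The 56 genes with a mean of 1000 FPKM or more held 15.2% of the counts, and 901 genes together held 50%. The 542 genes between 100 and 1000 FPKM held 24.1%. Genes between 10 and 100 FPKM therefore held the largest share of counts, a measure that favours long transcripts. By summed FPKM, the leading 100 genes held 33.2% and the leading 1000 held 65.5%. Among gene families, 9 of 10 frizzled receptors (Wnt receptors) and 85 of 87 ribosomal protein genes had a mean of at least 1 FPKM. The same was true of 17 of 37 Hox genes, 16 of 52 keratin genes, 18 of 87 cytochrome P450 genes and 22 of 85 potassium channel genes. Olfactory receptors (1 of 43) and vomeronasal receptors (0 of 23), which sense odours and pheromones in the nose, were nearly absent, against 66.7% of all genes.

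The most abundant transcript was Clca1, which encodes a secreted mucus-associated protein named as a regulator of calcium-activated chloride channels. It stood at 8087, 6822 and 8623 FPKM in control 1, 2 and 3 and took 2.76%, 2.33% and 2.94% of all counts. Eef1a1, the translation elongation factor that delivers tRNA to the ribosome, followed at 6587, 6796 and 6380 FPKM. The ranges of these genes did not overlap, and Clca1 led in every library. Its relatives were far lower, Clca3a1 at 3.22 ± 0.632 FPKM and Clca2 at 0.320 ± 0.0411.

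**Figure D1:**
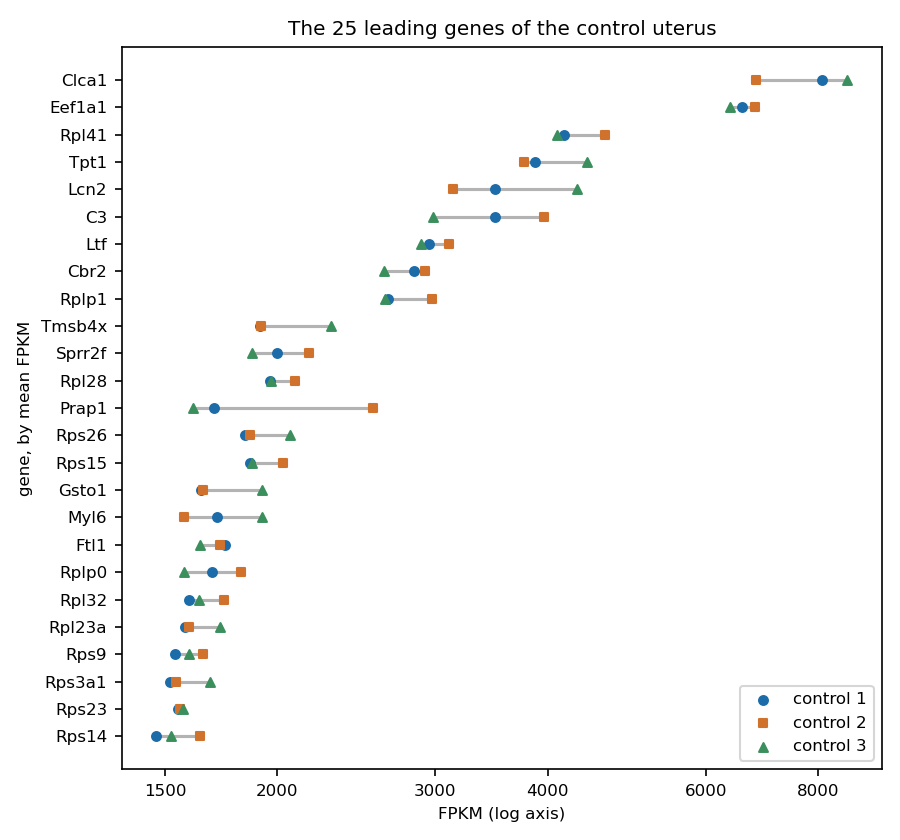
FPKM (log axis) of the 25 genes with the highest mean level in the control uterus, with a point for each library and a line from the lowest to the highest. Clca1 lies highest in all 3 libraries, from 6822 to 8623, and Prap1 has the widest line, from 1613 in control 3 to 2554 in control 2.

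Several of the other leading genes encode secreted or defence proteins of the epithelium. Lcn2, which binds bacterial iron carriers, stood at 3495, 3135 and 4316 FPKM, highest in control 3. C3, the central complement component, stood at 3494, 3966 and 2980 FPKM, with the libraries in the opposite order to Lcn2. Ltf, the iron-binding protein lactoferrin, stood at 2948, 3110 and 2894 FPKM, with a CV (SD over mean) of 3.77%. The ranges of Lcn2 and C3 overlapped, as did those of C3 and Ltf, so their order is not fixed by these libraries. Cbr2, a carbonyl reductase, had 2841, 2922 and 2628 FPKM, and Sprr2f, a small proline-rich protein of the epithelial surface, had 1999, 2170 and 1877 FPKM. Prap1, a secreted proline-rich acidic protein, had 1700, 2554 and 1613 FPKM, with control 2 apart from the others. Gsto1, a glutathione transferase, followed at 1740 ± 157 FPKM.

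The rest of the 25 leading genes served protein synthesis, iron storage or the cytoskeleton. Ribosomal protein genes made up 12 of them, led by Rpl41 (4170, 4638 and 4093 FPKM) and Rplp1 (2756 ± 191), and 53 of the leading 100. The others among the 12 were Rpl28 (2007 ± 72.7), Rps26 (1923 ± 124), Rps15 (1923 ± 93.4), Rplp0 (1696 ± 123), Rpl32 (1658 ± 77.4), Rpl23a (1634 ± 79.6), Rps9 (1597 ± 57.7), Rps3a1 (1582 ± 88), Rps23 (1562 ± 9.93) and Rps14 (1545 ± 89). Tpt1, a growth-related protein whose translation is controlled, had 4020 ± 352 FPKM. Tmsb4x, which sequesters actin, had 2044 ± 219 FPKM, Myl6, a light chain of myosin, had 1738 ± 174, and Ftl1, the light chain of ferritin, had 1706 ± 56. Ribosomal protein genes took 5.88%, 6.28% and 6.03% of counts and 17.3%, 18.4% and 17.6% of summed FPKM, as their transcripts are short. Ribosomal protein genes have many near-identical copies in the genome, so their levels can be understated: Rpl21 was listed at 6.81, 9.24 and 15.5 FPKM.

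By counts, which favour long transcripts, the 10 leading genes held 9.55%, 9.14% and 9.28% of each library (9.32% ± 0.209), and the leading 100 held 22.6% ± 0.434. Long transcripts that enter this order are Fcgbp, a mucus protein that binds immunoglobulin, with 423046, 353827 and 370109 counts, and Eef2, the elongation factor that moves the ribosome along. The smooth muscle actin Acta2 and the collagen chain Col1a1 complete the 10, beside Clca1, C3, Eef1a1, Ltf, Tpt1 and Lcn2. Col1a1 had 140759, 106818 and 87511 counts, rank 10 by counts but rank 130 by FPKM.

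The stretch just before the transcription start shows how differently the leading genes begin. RefSeq (GRCm38.p6) gave a window for 74 of the 100 leading genes and for 14147 genes of the table, matched by symbol. The letters TATAAA, the core of the TATA box that positions the start of transcription at some genes, were searched in the 50 bases before each start, on the strand of the gene only. They occurred at any listed start of 3.32% of all 14147 genes, 1.62% of those with a mean of 1 to 10 FPKM and 5.31% (25 of 471) of those at 100 FPKM or more. At 100 FPKM or more, the share was 0 of 56 for ribosomal protein genes and 6.02% for the others, and genes under 0.1 FPKM had 7.6%. The share was therefore highest at both ends of the range of levels. Of 29 leading genes that are not ribosomal and have a single window, 4 held the letters, and these 4 are shown first, followed by 6 secretory or housekeeping leaders without them, as the last 60 bases before the start, 5′ to 3′, with the letters in capitals.
Sprr2f, chr3:92365127-92365186, plus strand: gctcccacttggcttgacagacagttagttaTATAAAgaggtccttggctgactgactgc
Eef2, chr10:81176571-81176630, plus strand: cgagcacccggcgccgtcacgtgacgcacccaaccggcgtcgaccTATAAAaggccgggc
Ppia, chr11:6415807-6415866, plus strand: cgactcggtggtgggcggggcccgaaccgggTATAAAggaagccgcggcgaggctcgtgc
H2-D1, chr17:35263034-35263093, plus strand: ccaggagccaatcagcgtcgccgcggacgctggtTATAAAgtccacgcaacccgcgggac
Eef1a1, chr9:78481725-78481784, minus strand: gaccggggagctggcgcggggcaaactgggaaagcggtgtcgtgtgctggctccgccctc
Lcn2, chr2:32387740-32387799, minus strand: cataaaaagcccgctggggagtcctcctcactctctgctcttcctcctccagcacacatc
C3, chr17:57228137-57228196, minus strand: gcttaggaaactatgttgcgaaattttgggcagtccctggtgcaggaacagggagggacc
Ltf, chr9:111019232-111019291, plus strand: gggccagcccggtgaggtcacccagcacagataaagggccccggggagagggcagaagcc
Prap1, chr7:140093336-140093395, plus strand: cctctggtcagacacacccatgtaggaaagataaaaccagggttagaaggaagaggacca
Fcgbp, chr7:28071176-28071235, plus strand: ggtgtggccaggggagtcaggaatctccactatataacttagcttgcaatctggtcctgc
A match is a description of these letters and not of a working site. The secretory leaders Lcn2, C3, Ltf, Prap1 and Fcgbp had no exact match in this window. Near forms were not counted, such as tatataa in Fcgbp and gataaa in Ltf and Prap1, so these genes are not shown to lack a TATA box.

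The markers of each uterine layer were present, as the tissue label requires. All 16 epithelial markers had a mean of at least 1 FPKM (median 148 FPKM over the markers, against 4.02 over all genes). They were led by the keratin Krt19 (632, 658 and 687 FPKM), the secreted inhibitor-like Wfdc2 (643, 651 and 619) and the keratin Krt8 (525, 569 and 569), whose neighbouring ranges overlapped for Krt19 and Wfdc2. Their summed level, 3792, 4042 and 3977 FPKM, differed little between libraries. All 12 stromal markers were expressed, led by the matrix proteoglycan Dcn (1319, 970 and 1256 FPKM), Col1a1 (606, 481 and 386) and the proteoglycan Lum (556, 390 and 521). All 18 smooth muscle markers were expressed, led by the actin-binding Tagln (1522, 930 and 1583 FPKM), the myosin light chain Myl9 (1195, 909 and 1250) and Acta2 (1198, 847 and 1250). Control 2 was the lowest library for each of these muscle genes.

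Gland markers were lower. Sox17, a transcription factor of epithelium and endothelium, stood at 27.1, 32.9 and 26.4 FPKM, Aldh1a1, a retinoic acid producing enzyme, at 17.6, 11.3 and 20.4 FPKM, and Foxa2, the factor that glands need to form, at 3.96, 3.59 and 2.93 FPKM. The secreted gland product Cxcl15 had 0, 24 and 0 counts, and Spink1, a protease inhibitor, had 0 counts in all 3. Only 4 of the 8 gland markers in the table had a mean of at least 1 FPKM. The gland protease Prss28 was not in the table used here.

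**Figure D2:**
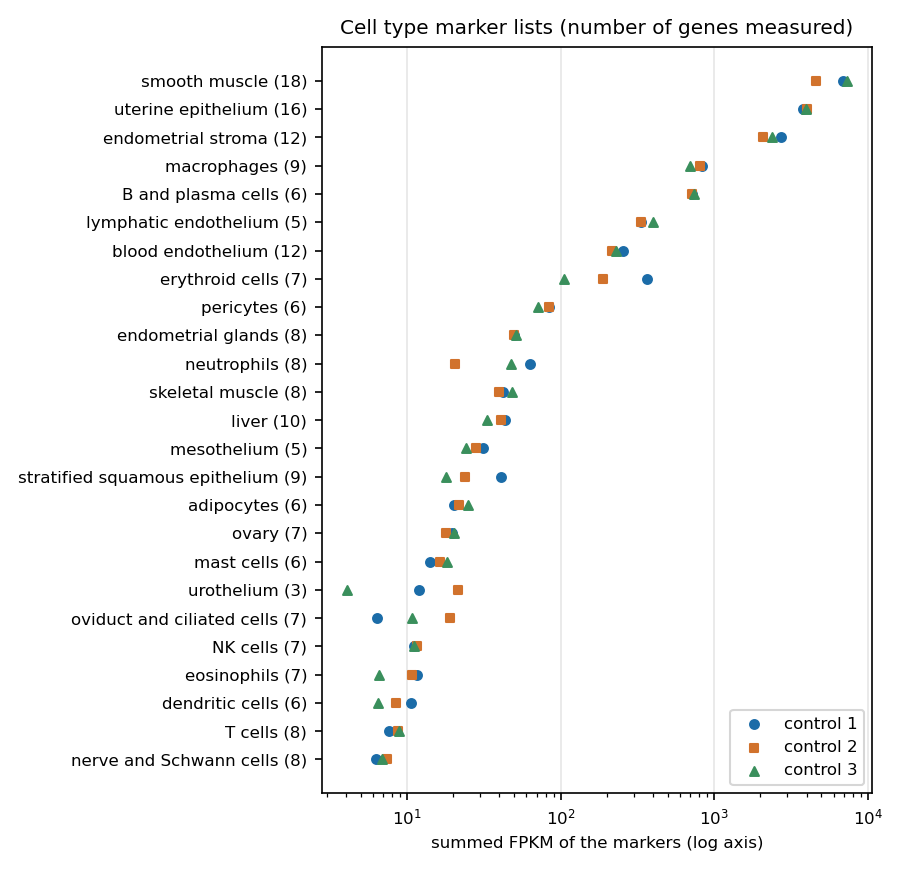
Summed FPKM (log axis) of each cell type marker list in each control library, with the number of genes measured in parentheses. Smooth muscle and epithelium lie highest, smooth muscle has control 2 at 4645 against 6903 and 7359, and erythroid markers run from 366 in control 1 to 105 in control 3.

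Vessel and immune lists were detected at lower levels. All 12 blood endothelial markers were expressed, led by Pecam1, an adhesion molecule (54.3, 43.5 and 49.4 FPKM), Eng, a coreceptor of TGF-beta (40.8, 30.4 and 40.2), and Egfl7, a secreted endothelial factor (30.02, 27.7 and 26.1). Among lymphatic markers, Ccl21a, the chemokine that draws dendritic cells into lymph vessels, led at 299, 302 and 370 FPKM, followed by Mmrn1 (12.02 ± 0.914) and the hyaluronan receptor Lyve1 (10.7 ± 1.06). Pericytes wrap small vessels, and their markers were led by the signalling regulator Rgs5 (35.4 ± 1.84), the growth factor receptor Pdgfrb (18.9 ± 3.17) and the potassium channel Kcnj8 (13.5 ± 2.78). Macrophage markers had the highest immune levels apart from the plasma cell gene Jchain, with the lysozyme Lyz2 at 362, 384 and 283 FPKM and the complement chains C1qa and C1qb at 113 ± 5.7 and 100 ± 10.6. Lyz2 is also made by other myeloid cells.

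Jchain, which joins immunoglobulin into polymers in plasma cells, stood at 688, 679 and 701 FPKM, a CV of 1.55%. Mzb1, a plasma cell chaperone, stood at 17.8 ± 1.58 FPKM and the B cell receptor component Cd79a at 9.23 ± 0.921. The mature B cell gene Ms4a1 had 3 to 23 counts per library, and Ighm and Igha were not in the table used here. T cell genes were led by Lck, a signalling kinase (3.35 ± 0.397 FPKM), Cd3g (1.89 ± 0.178) and Cd2 (1.45 ± 0.387), and 3 of 8 reached a mean of 1 FPKM. Natural killer genes were led by the granzymes Gzma (3.52 ± 0.382) and Gzmb (2.91 ± 0.409) and the receptor Ncr1 (1.69 ± 0.254), with 4 of 7 at 1 FPKM or more. Mast cell proteases were led by Tpsb2 (5.19 ± 0.344), Mcpt4 (4.03 ± 0.981) and Cma1 (3.23 ± 0.694).

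Dendritic cells were represented by Cd209a (3.57 ± 1.34 FPKM), Itgax (2.97 ± 0.758) and Zbtb46 (0.693 ± 0.0584). Eosinophil markers were led by the ribonuclease Ear2 (6.88, 9.65 and 3.11 FPKM), which has close relatives, the receptor Ccr3 (2.97, 0.428 and 1.85) and Siglecf (0.986, 0.255 and 1.00). Neutrophil markers were led by Retnlg, a resistin-like secreted protein, at 57.5, 12.8 and 41.5 FPKM, with Mpo (2.76 ± 1.32) and Csf3r (1.62 ± 0.0495) far below, and Ngp was at 0 in all 3. The calprotectin gene S100a8, abundant in neutrophils, had 3, 4 and 19 counts. Retnlg thus varied apart from the other markers of its list.

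Markers of organs next to the uterus were mostly low but uneven. Ovgp1, the secreted oviduct glycoprotein, stood at 0.455, 14.4 and 5.14 FPKM, while the ciliary genes Rsph1 (4.64 ± 0.833) and Foxj1 (0.178, 0.549 and 0.244) led the rest of that list. The basal keratin Krt5 stood at 19.3, 12.1 and 4.001 FPKM, Krt13 at 10.4 ± 1.91 and Krt14 at 8.61, 2.81 and 1.67, whereas the squamous gene Sprr3 had a mean of 0.00728. The bladder lining gene Upk1a stood at 10.3, 19.1 and 2.74 FPKM, Upk2 at 1.80 ± 0.646 and Upk3a at 1, 0 and 0 counts. Control 2 was highest for Ovgp1 and Upk1a, and control 1 for Krt5 and Krt14.

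Other lists gave small sums. Mesothelial genes were led by Wt1 (18.3 ± 1.23 FPKM), a factor also known in the stroma, Upk3b (5.56 ± 1.87) and Msln (2.35 ± 0.461). Adipocyte genes were led by Fabp4 (17.1 ± 1.79), which endothelium also expresses, Adipoq (2.06 ± 0.55) and Cidec (1.93 ± 0.555). Of the ovary list, the granulosa cell factor Foxl2, also known in the uterus, stood at 14.9 ± 0.913, Star at 3.91 ± 1.86 and Inha at 0.4004 ± 0.141. The leading gene of each of these lists is thus also known from other cells of the uterus. Muscle actin Acta1 (38.2 ± 3.08) led the skeletal muscle list, ahead of Tnnt3 (2.44 ± 0.891) and Mylpf (1.76 ± 0.084), and the myosins Myh1 and Myh2 were at 0. Of 8 nerve and Schwann cell genes, 1 had a mean of at least 1 FPKM, and the list summed to 6.30, 7.43 and 6.88 FPKM. Lower members included Uchl1, at 0.348 ± 0.126, and Th, the noradrenaline pathway enzyme, at 0. The cell bodies of uterine nerves lie outside the organ. Liver genes were led by Alb (14.9 ± 0.421), Serpina1a (6.91, 7.39 and 2.46) and Apoa1 (3.89 ± 0.255). Red cell genes were led by Hba-a1 (242, 55.7 and 30.8), Hbb-bs (103, 116 and 65.7) and Hbb-bt (18.6, 15.6 and 8.10). The alpha and beta globin genes are near copies of each other within each cluster, so reads may be split among them, and Hba-a2 had 4, 5 and 0 counts.

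Of 15 steroid and nuclear receptors, 10 had a mean of at least 1 FPKM. Pgrmc1, a membrane-associated progesterone-binding protein, led at 96.2, 104 and 78.0 FPKM, and Esr1, the main uterine estrogen receptor, followed at 51.4, 54.9 and 50.9, with no overlap between them. The retinoic acid receptor Rarg stood at 48.7, 47.4 and 45.6, below every value of Esr1. Esrra (26.0 ± 2.06), Nr2f2, a stromal factor downstream of progesterone signalling (23.7 ± 1.64), and Rxra (23.3 ± 1.68) formed a set whose neighbouring ranges overlapped. Rara (14.3 ± 0.379), Pgr, the progesterone receptor (10.7 ± 0.0466), and the glucocorticoid receptor Nr3c1 (8.77 ± 0.218) were lower, and the ranges of these 3 did not overlap. Pgr stood at 10.7 FPKM in each library, a CV of 0.435%. Under 1 FPKM were Gper1 (0.927 ± 0.0719), the mineralocorticoid receptor Nr3c2 (0.840 ± 0.0642), the vitamin D receptor Vdr (0.729 ± 0.166) and Rarb (0.689 ± 0.339). Esr2, the second estrogen receptor, had 7, 11 and 30 counts (0.125 ± 0.0959 FPKM).

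Genes known to respond to estrogen in the uterus reached far higher levels than those known to respond to progesterone. Of 18 estrogen-responsive genes, 14 had at least 1 FPKM, with a median of 124 FPKM over all 18, led by Clca1, Lcn2 and C3. Padi1 (723 ± 40.6) and Padi2 (296 ± 46.7), enzymes that convert arginine in proteins to citrulline, and the mucin Muc1 (296 ± 6.15) came below Sprr2f. Other small proline-rich genes of the same cluster were lower, Sprr2a3 at 94.5, 143 and 96.5 FPKM and Sprr2b at 6.03, 13.0 and 33.9, and reads may be split among these close relatives. Igf1, the stromal growth factor, stood at 11.7, 5.82 and 15.2 FPKM, lowest in control 2. Of 15 progesterone-responsive genes, 7 had at least 1 FPKM and the median was 0.582 FPKM, led by the transcription factor Gata2 (49.8 ± 5.15), the kinase inhibitor Errfi1 (33.3 ± 1.57) and Hoxa10 (30.6 ± 4.33). Ihh, the epithelial hedgehog ligand that progesterone induces, had 7, 50 and 11 counts, and Areg, Lrp2, Il13ra2 and Calca each had a mean under 0.1 FPKM. The lists were written with earlier results on these mice known and are not independent evidence of a hormonal state.

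Among 12 luminal secretory and defence genes, 11 were expressed, at a median of 377 FPKM. Below Lcn2, C3 and Ltf came the complement factor Cfb (646, 537 and 734 FPKM), Wfdc2, and Pigr, the receptor that carries polymeric immunoglobulin into the lumen (408, 428 and 396). Defb1, a defensin, was at 0.0190 ± 0.0165 FPKM. Summed over the list, the 3 libraries stood at 12476, 12713 and 12711 FPKM, although control 3 was highest for Lcn2 and Cfb and control 2 for C3.

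Of the uterotonic receptors and gap junction genes, which make the muscle contract and couple its cells, 8 of 15 were expressed. Gja1, the connexin of the contracting myometrium, stood at 58.6, 48.6 and 58.0 FPKM, Ptger4, a prostaglandin E receptor, at 31.3, 36.4 and 30.3, and Oxtr, the oxytocin receptor, at 32.0, 13.4 and 36.1. Control 2 was lowest for Gja1 and Oxtr but highest for Ptger4. The prostaglandin F receptor Ptgfr stood at 0.516 ± 0.268 FPKM and the muscarinic receptors Chrm2 and Chrm3 at 0.0629 ± 0.0453 and 0.135 ± 0.0558.

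All 24 matrix genes were expressed, at a median of 102 FPKM, led by Dcn, the calcification inhibitor Mgp (704, 758 and 694) and Sparc, a collagen-binding protein (711, 609 and 527). Of 44 collagen genes in the table, 27 had a mean of at least 1 FPKM, led by Col6a1 (677, 544 and 545), Col1a2 (643, 515 and 462) and Col3a1 (596, 492 and 428). Control 1 was highest for each of these but Mgp. Patterning genes of the Muellerian duct, which becomes oviduct, uterus and upper vagina, were present for 16 of 20, led by the factors Emx2 (44.1 ± 4.07), Pax8 (43.1 ± 7.51) and Msx2 (42.3 ± 2.43), whose ranges overlapped. Hoxa11 (39.9, 39.0 and 28.0) and Hoxa10 (33.6, 32.6 and 25.6), which mark uterine identity, were both lowest in control 3. Of the Hox genes, Hoxb6 (45.5 ± 3.69) lay above both in every library. Hoxb8 (38.2, 38.5 and 39.4) had a higher mean than Hoxa11 but lay below it in control 1 and 2, so their ranges overlapped. Hoxa13 and Hoxd13, which mark the lower tract, had means of 0.284 and 0.0277 FPKM.

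Of 26 TRP channel genes in the table, the family of cation channels that senses calcium, heat, stretch and lipids, 11 had a mean of at least 1 FPKM, and Trpc2 and Trpm8 were not in the table used here. Trpv6, the epithelial calcium entry channel, led at 79.0, 77.1 and 106 FPKM. The ranges of Trpv6, Trpm4 (18.5 ± 2.64), a sodium-conducting channel opened by calcium, the lysosomal channel Mcoln1 (14.1 ± 0.843) and Trpm7 (8.82 ± 0.628), which carries magnesium, did not overlap with that of the next gene. Trpv4 (7.49 ± 0.461) also lay apart from Pkd2 (6.53 ± 0.359), and Trpv2, a channel of muscle and immune cells, stood at 5.43 ± 0.74. Trpc4 (2.54 ± 0.157), Trpm6 (2.24 ± 0.45) and Trpc1 (1.402 ± 0.0729) were the lowest of the 11.

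Under 1 FPKM, Trpc6 stood at 0.551 ± 0.0941, Mcoln2 at 0.383 ± 0.0759, Trpv5, the closest relative of Trpv6, at 0.329 ± 0.172, Trpm2 at 0.118 ± 0.00831 and Trpc5 at 0.117 ± 0.0534 FPKM. Several of these channels are best known from sensory neurons or immune cells. Mcoln3 (0.0688 ± 0.0384), Pkd2l2 (0.0606 ± 0.0353), Trpv1 (0.0582 ± 0.00599), Pkd2l1 (0.0299 ± 0.0478), Trpm5 (0.0181 ± 0.0113), Trpm1 (0.0111 ± 0.00772) and Trpc7 (0.00231 ± 0.00401) were lower still. Trpm3, the channel that primidone is known to block, had 24, 26 and 32 counts, which over its listed length of 22422 bases gave 0.0273, 0.0309 and 0.0374 FPKM. Trpv3 and Trpa1 had 0 counts in all 3 libraries.

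Further lists covered the state of the cells. Of 27 cell cycle genes 26 were expressed, led by the replication clamp Pcna (49.7, 51.7 and 51.0 FPKM), the ubiquitin enzyme Ube2c (26.4, 25.9 and 32.7) and the replicative helicase subunit Mcm7 (14.2, 15.8 and 13.7), while the proliferation marker Mki67 stood at 5.69, 6.80 and 8.62. Among 17 clock genes 16 were expressed, led by the repressor Bhlhe40 (88.5 ± 1.7) and the output factor Dbp (53.6, 60.1 and 39.2) and the repressor Nr1d1 (38.2, 38.1 and 24.6). The clock activator Arntl, at 0.467 ± 0.0565 FPKM, had 314 to 392 counts over a listed length of 19267 bases. Immediate early genes were led by Jund (122 ± 5.13), Junb (87.1 ± 2.88) and Ier3 (79.4 ± 7.52). Heat shock genes were led by the chaperones Hsp90ab1 (806 ± 58.2), Hspa8 (551 ± 37) and Hsp90aa1 (67.0, 57.4 and 94.3).

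Glycolysis genes were led by Tpi1 (300.1 ± 10.8 FPKM), Aldoa (267 ± 10.6) and Ldha (118 ± 9.84). Interferon-stimulated genes, all 16 of those in the table, were expressed, led by the antiviral tether Bst2 (290.0 ± 30.4), the transcription factor Irf7 (146 ± 10.9) and Oasl2 (65.0 ± 3.5). Chemokines outside the lists were led by Cxcl17 (396, 421 and 360), Cxcl14 (151, 233 and 175) and the eosinophil attractant Ccl11 (162 ± 14.2).

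Between the 3 mice, the median CV of FPKM was 7.98% over the 12069 genes with a mean of at least 1 FPKM. The CV expected from counting alone, 1 over the square root of the mean count, had a median of 2.75%. The common biological CV from edgeR, over the 13571 genes it kept, was 14.4%. The CV was at most 10% for 7442 genes (61.7%) and over 50% for 94. The median CV was lower at higher levels, from 14.1% at 1 to 3 FPKM to 6.78% at 10 to 30 FPKM and 5.62% at 100 to 1000 FPKM, and then changed little, at 5.66% above 1000 FPKM. The part that counting alone gives was 5.85% at 1 to 3 FPKM and 0.449% above 1000 FPKM. With only control 1 and 3 the median CV was 5.86%, with only control 1 and 2 it was 6.06%, and with only control 2 and 3 it was 7.98%. At the same spread a CV over 2 libraries has a lower median than one over 3. These values can therefore be compared with each other but not with the median over 3 libraries.

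**Figure D3:**
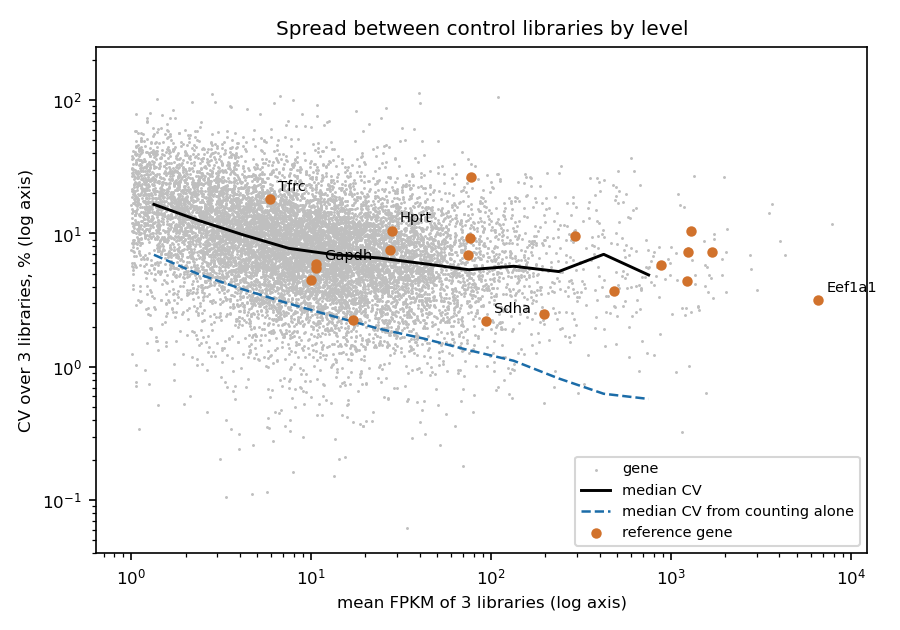
CV over the 3 control libraries (%, log axis) against mean FPKM (log axis) for each gene with a mean of at least 1 FPKM in grey, with the median CV, the median CV that counting alone gives, and the 20 reference genes in orange. Above 10 FPKM the black line is nearly level while the dashed line keeps dropping, and Tfrc (17.98%) stands above most genes of its level.

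Genes commonly used as references for quantitative PCR covered this whole range. Sdha, a subunit of a mitochondrial dehydrogenase, had a CV of 2.20% (92.9, 95.6 and 91.6 FPKM) and the tubulin Tubb5 2.48% (195, 201 and 191). Next came Eef1a1 (3.15%), Rpl19 (3.72%), Rpl13a (4.40%), the transcription factor Tbp (4.50%), Gapdh (5.48%), the prolyl isomerase Ppia (5.81%), Gusb (5.93%) and Ywhaz (6.92%). Actb, a cytoskeletal actin (7.22%), Rplp0 (7.24%) and the RNA polymerase subunit Polr2a (7.48%) lay just under the median of all expressed genes. Above it were Pgk1 (9.23%), Rps18 (9.54%), B2m (10.4%) and Hprt (10.5%), and far above it the transferrin receptor Tfrc (17.98%). Gapdh was listed at only 10.1, 10.5 and 11.3 FPKM with 689, 681 and 747 counts, and it has many near-identical copies in the genome to which its reads could go.

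The 12 steadiest genes with a mean of at least 10 FPKM included Rab32, Ube2k, Bak1, Atg5, Med30, Get3, Opa3, Tmem189, Gsk3a, Mif4gd and Samm50. Rab32, a small GTPase of organelle traffic, stood at 34.0 FPKM in each library and Bak1, a mitochondrial pore former in cell death, at 69.8, 69.6 and 69.6. All 12 had a smaller CV than counting alone gives, as did 6.84% of all genes at that level, and their order was not tested.

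At the other end stood the 12 most variable named genes at that level. Gdpd3, an enzyme that acts on lysophospholipids, stood at 42.6, 77.3 and 0.711 FPKM (1780, 3092 and 29 counts), so control 3 was almost without it. H2-Eb1, the beta chain of a class II antigen-presenting molecule, stood at 24.96, 3.71 and 49.3 FPKM, 13.3 times higher in control 3 than in control 2. Rnaset2b, a lysosomal ribonuclease, stood at 12.1, 91.9 and 15.4 FPKM, and Rbck1, a subunit of the ligase that builds linear ubiquitin chains, at 25.4, 41.6 and 5.90. The library that stood apart was control 3 for Gdpd3 and Rbck1 and control 2 for H2-Eb1 and Rnaset2b.

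Relatives of these genes, chosen after the values were seen, varied less, and some ran in another order. The other class II genes were highest in control 2, where H2-Eb1 was lowest: H2-Ab1 stood at 145, 172 and 104 FPKM, the invariant chain Cd74 at 522, 573 and 390, and H2-Aa at 116, 119 and 107. Rnf31 (11.8, 12.8 and 9.27) and Sharpin (28.2, 27.7 and 25.6), the partners of Rbck1, were also lowest in control 3, with CVs of 16.03% and 5.07% against 73.6% for Rbck1. Rnaset2a, the near-identical neighbour of Rnaset2b, stood at 111, 106 and 136 FPKM, and reads may be split between these copies. Gdpd1, a relative of Gdpd3, ran in the same order as Gdpd3 over a narrower range, at 11.7, 13.0 and 10.3 FPKM.

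**Figure D4:**
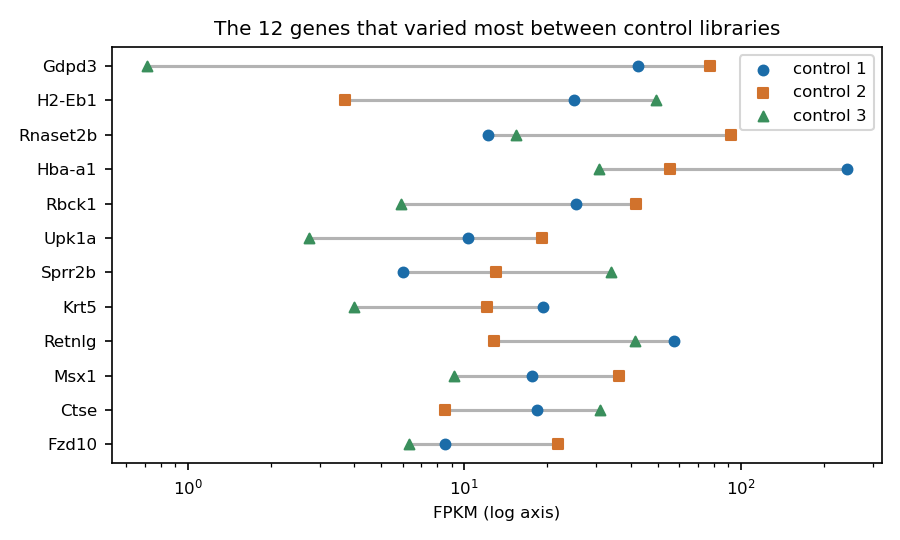
FPKM (log axis) of the 12 genes with the largest SD of log2(FPKM + 0.1) among named genes with a mean of at least 10 FPKM, with a point for each control library and a line from the lowest to the highest. Gdpd3 spans the widest range, from 0.711 in control 3 to 77.3 in control 2, and the library that stands apart differs from gene to gene.

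The remaining variable genes were Hba-a1, Upk1a, Sprr2b, Krt5 and Retnlg, with values above, and Msx1, Ctse and Fzd10. Msx1, a homeobox factor of the epithelium, stood at 17.6, 36.2 and 9.16 FPKM, Fzd10, a Wnt receptor, at 8.54, 21.8 and 6.31, and the protease Ctse at 18.3, 8.51 and 30.9. Msx1 and Fzd10 were thus highest in control 2, the highest library for 43.5% of all expressed genes. So were the epithelial Wnt ligand Wnt7a (8.13, 16.1 and 8.63), Pax8 (40.5, 51.6 and 37.2) and Ovgp1. The oviduct list summed to 6.34, 19.0 and 10.8 FPKM in the same libraries, but without Ovgp1 to 5.89, 4.61 and 5.70, lowest in control 2. Of its 7 markers 2 had a mean of at least 1 FPKM, Ovgp1 and Rsph1 (5.09, 3.67 and 5.15), and the cilia genes Dnah5 and Dnah9 had means of 0.0630 and 0.00443. The part of oviduct tissue in these differences was not tested.

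By library, further genes stood apart at a mean of at least 5 FPKM. Control 1 was highest for Dynlt1f, Galnt16, Saa2 and Wfdc10 besides Hba-a1 and Krt5, and lowest for Arg2, Foxq1, Rpl21 and Umad1 besides Ovgp1 and Sprr2b. Control 2 was highest for the metal-binding Mt2 (25.1, 52.7 and 22.3 FPKM) and the mucin Glycam1 (4.46, 9.61 and 1.53), and lowest for the lipoprotein receptor Apobr (7.74, 2.58 and 16.3), Chrdl2 (7.20, 2.28 and 6.86), Cmah, which makes a sialic acid (5.37, 1.56 and 16.9), and the hormone gene Ghrh (6.82, 2.00 and 9.04). Control 3 was highest for the chitinase-like Chil1, Cmah, the keratin Krt20 (4.30, 1.52 and 12.9), the protease Mmp7 (5.86, 3.18 and 13.3) and Spp1 (6.12, 5.52 and 16.01), and lowest for Glycam1 and the receptor Mrgprb3 (9.71, 12.5 and 2.40) besides Gdpd3, Rbck1, Krt5 and Upk1a. Mt1, the partner of Mt2, ran in the same order, at 33.3, 47.3 and 28.5 FPKM.

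Whole gene lists also shifted together between the mice. For each list with at least 5 expressed members, the position of a library was taken as the median over members of its log2(FPKM + 0.1) minus the mean of the other libraries, after subtracting the same median over all expressed genes. In 11 of 24 lists some library lay more than 0.2 log2 units from the others. Some lists share genes, such as Dcn in the stroma and matrix lists, so the 11 are not independent of each other. Smooth muscle had the widest gap, control 2 lying 0.59 log2 units below the other libraries (−0.59). Control 2 was the lowest library for 18 of 18 muscle genes, where it was lowest for 29.97% of all expressed genes. The summed level was 6903, 4645 and 7359 FPKM, so control 1 and 3 lay close together, and calponin Cnn1 (423, 288 and 475 FPKM), desmin Des (264, 161 and 287) and the enteric-type actin Actg2 (659, 426 and 792) each repeat that order.

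**Figure D5:**
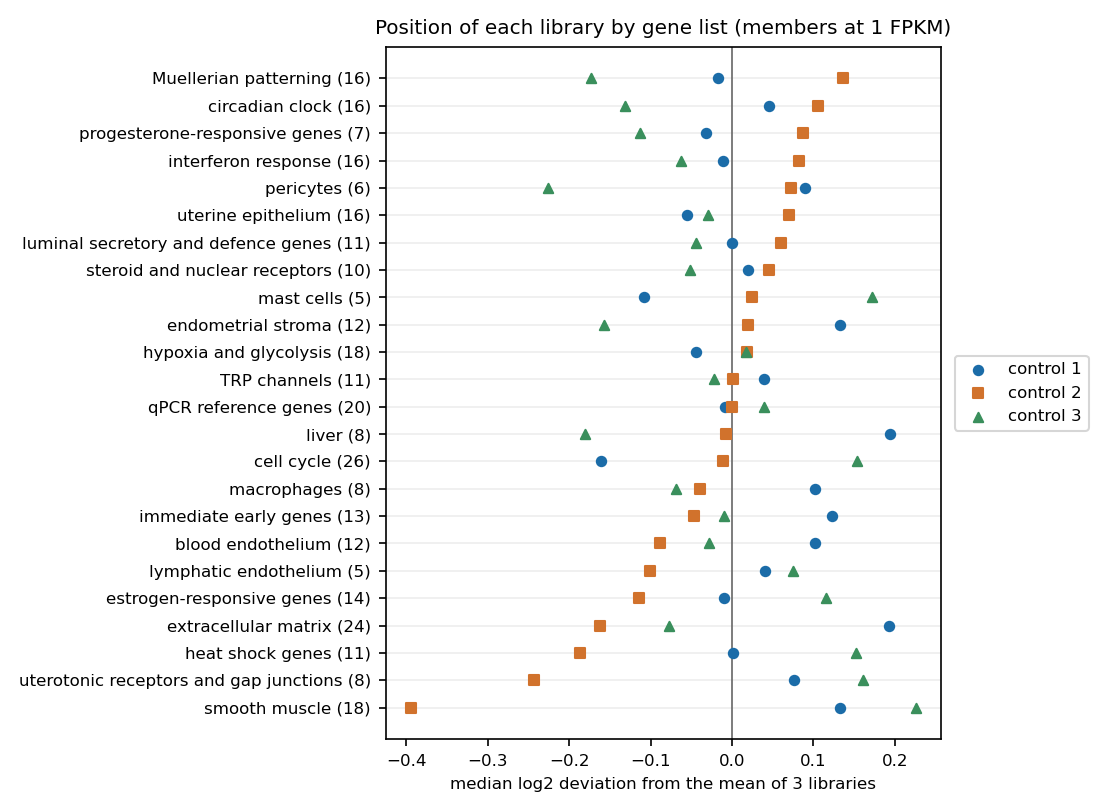
Median over the expressed members of each gene list of the log2 deviation of a control library from the mean of the 3 libraries, with the number of members in parentheses and a point for each library. Control 2 lies farthest left for smooth muscle, at −0.39, followed by uterotonic receptors, and the qPCR reference genes lie within 0.04 of 0 in all 3 libraries.

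The uterotonic list followed muscle, with control 2 lowest for 6 of 8 genes (−0.38). Of heat shock genes, control 2 was lowest for 7 of 11 (−0.31) and highest for 2, and control 3 was highest for 9 of 11. Their leading gene Hsp90ab1 ran the other way, at 799, 867 and 752 FPKM. The heat shock sum was nearly level, at 1726, 1714 and 1774 FPKM. For epithelial markers control 2 lay slightly above the others. It was highest for 11 of 16 of them and lowest for 1, where it was highest for 43.5% of all expressed genes. Its median deviation from the mean of the libraries was 0.07 for these markers, against 0.02 for all expressed genes. In whole tissue, the share of muscle in a piece of uterus and the muscle genes' own level cannot be told apart.

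Control 1 lay above the others for extracellular matrix (0.32, highest for 19 of 24, against 23.7% of all genes) and for liver genes (0.32, highest for 5 of 8). The liver gap rests on control 3, which was lowest for 5 of 8, against 40.4% of all genes. Before subtracting the median of all genes the liver gap was 0.31, and 0.04 without control 3. For endometrial stroma control 1 lay above the others (0.23, highest for 8 of 12). Control 3 lay below them (−0.23 before the subtraction, lowest for 9 of 12, against 40.4% of all genes). The stromal sum ran otherwise, at 2737, 2089 and 2368 FPKM, lowest in control 2, as were the abundant Dcn and Lum. The erythroid sum of control 1 was 366 FPKM against 190 and 105 in control 2 and 3, and Hba-a1 made up 242 of the 366; whether blood plays a part in the liver list was not tested. Control 3 lay above the others for mast cells (0.31, highest for 4 of 5), cell cycle genes (0.27, highest for 19 of 26, against 32.7% of all genes) and estrogen-responsive genes (0.21, highest for 9 of 14). It lay below the others for pericytes (−0.30, lowest for 5 of 6) and Muellerian patterning genes (−0.23, lowest for 11 of 16, against 40.4% of all genes). For cell cycle genes control 1 was lowest in 18 of 26, against 29.6% of all genes. Before the subtraction, the mast cell gap was 0.29 and the estrogen-responsive gap 0.19, and without control 1 they were 0.16 and 0.33. On the same scale the Muellerian gap moved from −0.25 to −0.12 without control 2, and the heat shock gap of control 2 from −0.27 to −0.17 without control 3. Lists with little shift included steroid receptors (−0.06), luminal secretory genes (0.06), glycolysis genes (−0.05), TRP channels (0.08) and the reference genes (0.08).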

How the data were processed

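The measurement is bulk RNA sequencing of the uterus of 3 control mice. Per the labels' protocols, total RNA was extracted with TRIzol and made into libraries with a VAHTS kit. Per the submitters' processing notes, the genome build was GRCm39 and the tools were DESeq2, HTSeq, HISAT2 and R 3.2.0. The annotation and strand setting, and which tool made which value, are not stated there. Without strand, reads of overlapping or antisense genes cannot be told apart. The authors deposited raw read counts per gene symbol, not normalized, and FPKM values, scaled for depth and gene length; gene lengths recovered from their ratio were whole within 0.01 for 99.97% of genes. Levels are the deposited FPKM and depth is the count total; 0 columns belonged to no sample.

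Means, SDs, CVs and ranks were computed in Python 3.11.15 (pandas 2.3.3, numpy 2.4.6), log values with a pseudocount of 0.1, and the common biological CV and scaling factors in R 4.3.3 with edgeR 4.0.16 and DESeq2 1.42.0. A gene counts as expressed at a mean of 1 FPKM. The spread and list procedures were tested on simulated data. With 1 group there was no comparison and no test.

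Genes named are the 25 highest by FPKM and 10 by counts, the 3 highest members and those at 0 of each list, all TRP channels, steroid receptors and reference genes, the 12 with the largest and smallest spread, and 6 above and 6 below per library. Predicted genes (85 at a mean of 10 FPKM or more, 133 at 5 or more) are left out of the last 2 sets. Some genes that this rule names are not reported here. Other genes are examples chosen after their values were seen. The members and lists were chosen with earlier results of these data known.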

Additional observations from a re-analysis of the deposited data

How the results depend on the processing

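With only 3 libraries, each SD is itself imprecise, and levels of genes with near-identical copies or very long listed models depend on how reads and lengths were assigned. The 11698 genes at 1 FPKM or more in each library became 10502 to 14126 at other levels (2 and 0.1 FPKM), 12069 by the mean of the libraries, 11769 to 11870 with a library left out, and 11460 without predicted genes, an alternative added after seeing the data. The leading 10 genes by FPKM held 9.75% of summed FPKM. The leading 10 by counts, a partly different set, held 9.32% of counts. The median CV of 7.98% was 6.43% at a mean of at least 10 FPKM and 11.4% with no filter; as an SD it was 0.0999 of log2(FPKM + 1) and 0.113 of log2(FPKM + 0.1). With a library left out it ranged from 5.86% to 7.98%, though a CV over 2 libraries is not on the same footing as one over 3. The 11 lists with a library over 0.2 log2 units apart became 4 to 9 with a library left out (7 without control 2, 4 without control 3). They became 23 with no filter on low values. That count is not out of the same 24 lists, as lists with fewer than 5 members at 1 FPKM then enter too. Across 24 lists, 0 of 48 left-out values and 0 of 120 values under the other settings changed sign. The library of each list had been picked as the farthest from the others and was never the one left out. A change of sign was therefore hardly possible among the left-out values, and its absence does not show how far they moved. No paired analysis was possible because the results come from no test.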
